A study of Rattus norvegicus with 3 samples.

Results

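Mitochondrial fatty acid oxidation was followed through 10 genes on oligonucleotide arrays of rat thoracic aorta: the carnitine shuttle enzymes Cpt1a, Cpt1b and Cpt2, the acyl-CoA dehydrogenases Acadvl, Acadl and Acadm, and Hadha, Hadh, Acaa2 and Eci1, which carry out or feed the later steps of the cycle. The members were chosen by their measured values: as a group they had been lower at the high dose in these same arrays, so their differences from control are given as a description and carry no test. They were represented by every probe set whose platform annotation gave 1 symbol and that symbol was a member, which was 17 of 7006 probe sets and 10 of 4736 genes. No probe set named a member together with another gene (0 probe sets). Sprague Dawley rats had received water (1 ml/kg) or allylamine (35 or 70 mg/kg) over 20 days, and each of the 3 groups had 1 array. The labels name no age or sex and do not say if the RNA of 1 or of several rats was hybridised. No difference therefore has a replicate check or a p-value, and precision is limited by there being 1 array a group.

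Long-chain fatty acids enter mitochondria as carnitine esters, made at the outer membrane by CPT1 and turned back to acyl-CoA inside by CPT2. Each turn of the spiral then removes an acetyl unit through an acyl-CoA dehydrogenase, an enoyl-CoA hydratase, a 3-hydroxyacyl-CoA dehydrogenase and a thiolase, and isomerases such as ECI1 bring unsaturated chains into the spiral. Heart, skeletal muscle and brown fat rely strongly on the pathway, and the nuclear receptors of the PPAR family drive transcription of many of its genes. Allylamine is toxic to heart and arteries, and vascular amine oxidase turns it into acrolein and hydrogen peroxide.

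Values below are deposited intensities rescaled to a common array median. A probe set was taken as measured in a comparison when it lay above a floor of 188, the 40th percentile of all rescaled values, on both arrays, and a gene's log2 difference was the median over its measured probe sets. A difference of at least 2-fold, a log2 difference of 1, was counted as lower or higher. Apart from the common floor, levels of different probe sets were set together only in the splits by brightness, the marker sums and the choice of brightest probe sets.

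At 70 mg/kg, 5 of the 10 genes were measured on both arrays, and all 5 were at least 2-fold lower than in the control aorta: Eci1, Cpt1b, Hadha, Hadh and Cpt2, with a median log2 difference of -2.32. Over all 2462 genes measured in this comparison, 23.2% were lower and 19.7% higher by the same rule, with a median of -0.06. Because the members were picked on this contrast, nothing is read from the difference between these shares. With a floor at the 5th percentile 9 of the 10 genes were measured, and the median was -1.10. Of these, 3 lay above 0 on dim readings: Cpt1a (0.04), Acadvl (0.76) and Acadl (0.96). With the floor of 188 the other 5 genes had no measured difference. Of these, Acaa2 lay above the floor in the control and below it at 70 mg/kg, and Cpt1a, Acadvl, Acadl and Acadm lay below it on every array. In all, 12 of the 17 probe sets were above the floor on at least 1 array, 5 of them on all 3 arrays. By array, 11 probe sets passed in the control, 8 at 35 mg/kg and 7 at 70 mg/kg. Of all probe sets without the controls, 60.1%, 59.2% and 60.7% passed on these arrays. The members were picked as lower at 70 mg/kg, so nothing is read from their smaller count there.

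**Figure D1:**
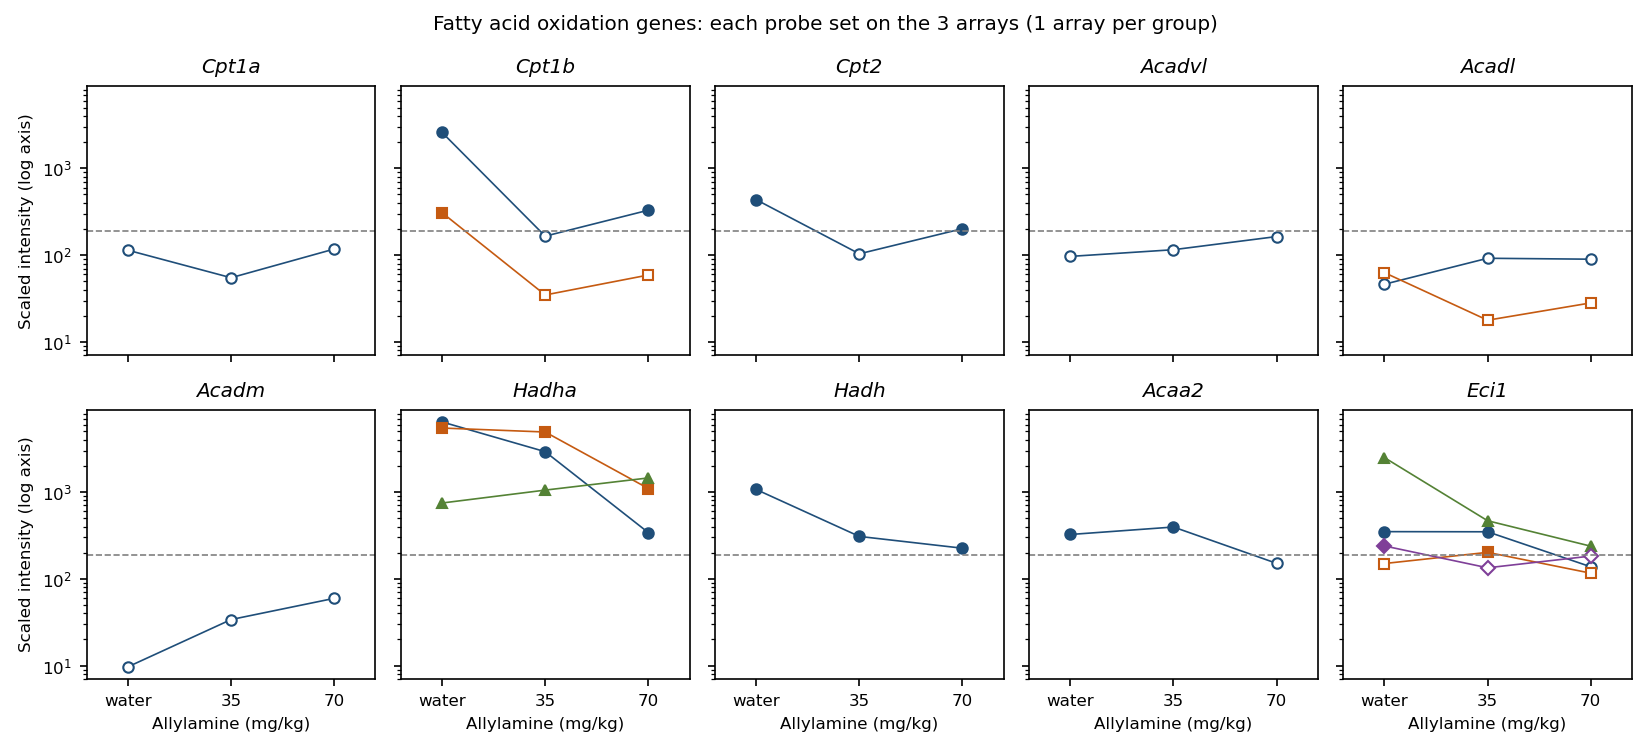
Rescaled intensity (vertical log axis) of each of the 17 probe sets on the water, 35 mg/kg and 70 mg/kg arrays, 1 panel per gene in pathway order; shapes and colours separate probe sets of a gene, filled points lie above the floor (dashed line, 188) and open points below it. Cpt1b, Hadh, 2 probe sets of Hadha and 1 of Eci1 stand high in the control and lower at 70 mg/kg, while Cpt1a, Acadvl, Acadl and Acadm stay under the floor.

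The arrays themselves differed. The spike-in control probe sets were brighter than in the control by a median factor of 3.81 at the lower dose and 28.8 at the higher, and the ratio of the 3' to the 5' actin probe set was 0.376, 0.542 and 1.42 from control to high dose. The span from the 5th to the 95th percentile on the log2 scale was 6.58 in the control, 6.16 at 35 mg/kg and 5.22 at 70 mg/kg. Of 10 smooth muscle marker genes, 9, 7 and 8 passed the floor from control to high dose. The spike-in, actin and span values followed the order of the doses, but with 1 array per group dose and array cannot be told apart. The part of these values in the results was not tested.

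The shuttle genes were led by Cpt1b, the muscle form of carnitine palmitoyltransferase I, which sets the rate of fatty acid entry in muscle. Its probe set D43623_at read 2594 in the control, 165 at 35 mg/kg and 329 at 70 mg/kg. The control alone was high, and the 35 mg/kg value was below the floor. The log2 difference at 70 mg/kg was -2.98, a 7.87-fold lower value. The 35 mg/kg value was at least 13.8-fold lower than control, and the high dose stood at least 1.75-fold above the lower dose. The second probe set, D43623_g_at, comes from the same sequence and may share probes. It read 308, 34.7 and 59.0, above the floor in the control only, so that it was at least 1.64-fold lower at either dose. When such probe sets were kept with their low value raised to the floor, the Cpt1b difference at 70 mg/kg was -1.84.

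Cpt2, the inner membrane enzyme that completes the shuttle, read 435 in the control, 104 at 35 mg/kg and 202 at 70 mg/kg. The control was again the highest of the 3 arrays, and the 70 mg/kg value stood just above the floor. The difference at 70 mg/kg was -1.11, and at 35 mg/kg the value was at least 2.31-fold lower. With the values as deposited the 70 mg/kg difference was -0.96, under the 2-fold rule, which left 4 of 5 measured genes lower. Cpt1a, the liver form of the outer membrane enzyme, read 114, 54.9 and 118. It lay under the floor throughout, so these readings give no order.

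None of the acyl-CoA dehydrogenases, which open each turn of the spiral for very long (Acadvl), long (Acadl) and medium (Acadm) chains, reached the floor on any array (0 of 4 probe sets). From control to high dose Acadvl read 96.7, 115 and 164, and Acadm 9.68, 33.9 and 59.6. The Acadl probe sets read 46.2, 92.0 and 89.8 for J05029_s_at and 62.8, 17.8 and 28.1 for rc_AI639522_at. Readings under the floor have no order, and a difference in these genes was not detectable at this signal.

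Hadha, the alpha subunit of the trifunctional protein, which holds hydratase and long-chain hydroxyacyl-CoA dehydrogenase activity, was measured by 3 probe sets on all 3 arrays. D16478_at read 6423 in the control, 2916 at 35 mg/kg and 341 at 70 mg/kg. D16478_g_at, from the same sequence, read 5463, 4917 and 1098. Both were highest in the control and lowest at 70 mg/kg. X98225_s_at read 747, 1052 and 1454 and ran the other way. The log2 differences at 70 mg/kg were therefore -4.24, -2.32 and 0.96, with a median of -2.32, and at 35 mg/kg -1.14, -0.15 and 0.49, with a median of -0.15. Between the doses the median was -2.16 (-3.10 to 0.47). Without the less specific probe sets, whose IDs carry a letter before the ending, only D16478_at was left and the 70 mg/kg difference was -4.24. Over 490 genes with more than 1 measured probe set, the pooled SD between probe sets of a gene was 1.40 on the log2 scale in this comparison. The direction of Hadha rests on 2 probe sets of a single sequence.

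Hadhb, the neighbour of Hadha on the opposite strand, encodes the beta subunit of the trifunctional protein and its thiolase. The promoter windows of the pair, from 250 bases before to 50 after each start site in the GRCr8 assembly (RefSeq), share 200 bases, and the Hadha window is shown because Hadha shares this stretch with its partner subunit. It lies at chr6:31907551-31907850 on the plus strand, and capitals mark the bases it shares with the window of Hadhb.
Hadha: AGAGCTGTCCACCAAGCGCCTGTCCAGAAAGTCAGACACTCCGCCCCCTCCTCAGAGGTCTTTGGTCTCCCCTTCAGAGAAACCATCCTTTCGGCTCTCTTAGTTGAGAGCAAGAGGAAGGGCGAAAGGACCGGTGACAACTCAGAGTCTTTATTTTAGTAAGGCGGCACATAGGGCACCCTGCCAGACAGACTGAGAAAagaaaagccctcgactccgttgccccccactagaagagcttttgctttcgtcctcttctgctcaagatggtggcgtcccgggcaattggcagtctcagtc
The single Hadhb probe set, D16479_at, named here after its values were seen, read 41.8 in the control, 437 at 35 mg/kg and 87.0 at 70 mg/kg. It passed the floor at 35 mg/kg only, at least 2.32-fold above the control, and gave no difference at 70 mg/kg that could be set beside Hadha.

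Hadh, the short-chain hydroxyacyl-CoA dehydrogenase of the matrix, had 1 probe set, which read 1070 in the control, 308 at 35 mg/kg and 225 at 70 mg/kg. The control was high and both doses were low. The log2 difference was -2.25 at 70 mg/kg (4.75-fold lower), -1.80 at 35 mg/kg (3.48-fold lower) and -0.45 between the doses. Acaa2, the thiolase that releases acetyl-CoA in the last step, read 324, 395 and 151. It differed from control by 0.29 at 35 mg/kg, and at 70 mg/kg it was below the floor, at least 1.72-fold under the control and at least 2.10-fold under the lower dose.

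Eci1, the isomerase that moves double bonds so that unsaturated acyl chains can be oxidised, had 4 probe sets. rc_AA799541_at read 2493 in the control, 467 at 35 mg/kg and 238 at 70 mg/kg. It alone was measured at the high dose, with a difference of -3.39 (10.5-fold lower). D00729_at read 350, 348 and 138, nearly alike in the control and at the lower dose. At 70 mg/kg it was below the floor and at least 1.86-fold lower than control. D00729_g_at read 150, 202 and 116, and rc_AI170568_s_at read 239, 134 and 183. Each of these lay above the floor on 1 array only. At 35 mg/kg the gene's difference was -1.21, the mean of -2.42 and -0.01 in its 2 measured probe sets. A floor at the 5th or the 25th percentile let in all 4 probe sets, and the difference at 70 mg/kg was then -0.87, under the 2-fold rule. With the values as deposited, where rc_AI170568_s_at also passed, it was -1.74. The size of the Eci1 difference therefore rests on 1 probe set.

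**Figure D2:**
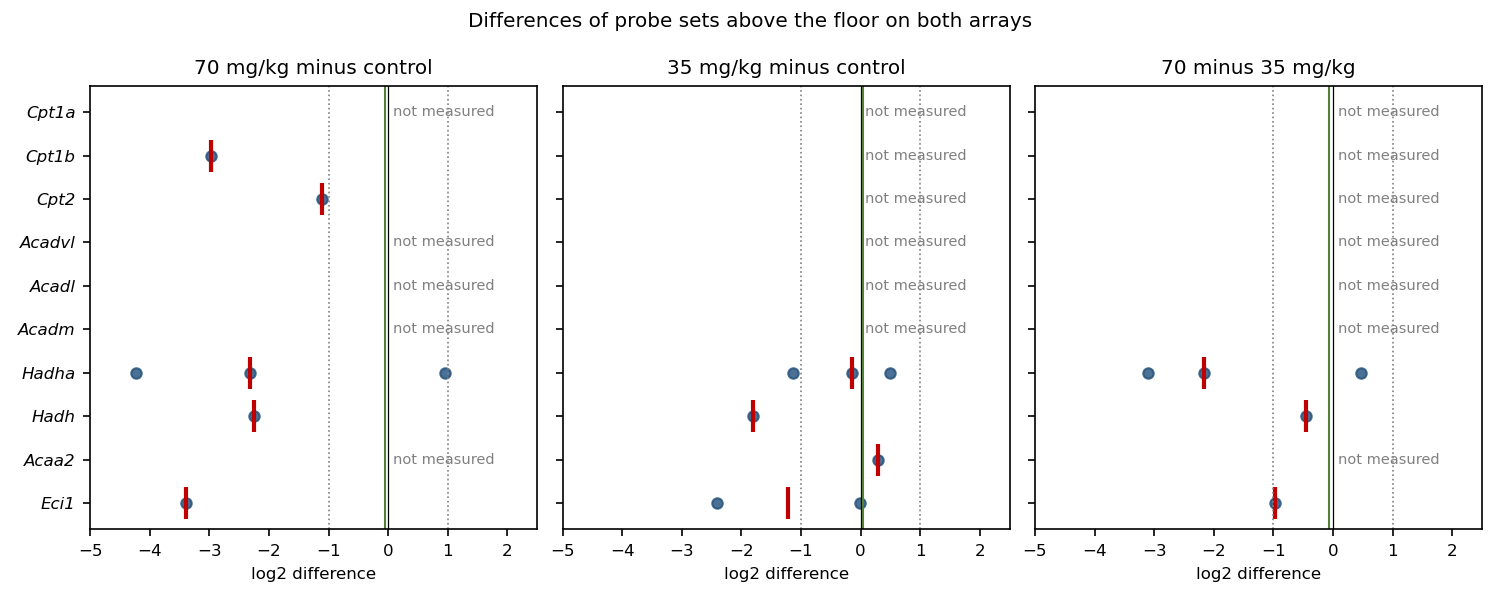
Log2 differences (horizontal axis) for 70 mg/kg minus control, 35 mg/kg minus control and 70 minus 35 mg/kg; blue points are probe sets above the floor on both arrays, red bars the median per gene, dotted lines 2-fold and the green line the median of all genes measured. At 70 mg/kg the 5 measured genes lie from -3.39 to -1.11, and 1 Hadha probe set lies at 0.96.

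At 35 mg/kg 4 of the 10 genes were measured: Hadh and Eci1 were at least 2-fold lower, Hadha and Acaa2 within 2-fold. Their median was -0.68. Eci1 was counted through 1 of its 2 measured probe sets, and it was at -0.42, under the 2-fold rule, when the floor was the 5th or 25th percentile. Of all 2606 genes in this comparison 16.3% were lower and 16.8% higher, with a median of 0.04. Cpt1b and Cpt2 were not counted because they lay below the floor at 35 mg/kg, although their bounds were lower still than at 70 mg/kg. Between the doses 3 genes were measured, of which Hadha was at least 2-fold lower at 70 mg/kg, Eci1 was at -0.97 and Hadh at -0.45. The background there was 20.9% lower and 14.4% higher of 2459 genes. Each array enters 2 of the 3 comparisons, which are therefore not independent of each other.

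The order of the arrays differed between members. The pair of Hadha probe sets from D16478, Hadh and the Eci1 probe set rc_AA799541_at read highest in the control and lowest at 70 mg/kg. The shuttle enzymes Cpt1b and Cpt2 read lowest at 35 mg/kg, where Acaa2 read highest. In the 3 genes with a probe set above the floor on all 3 arrays (Hadha, Hadh and Eci1), the median differences were -1.80 (35 mg/kg) and -2.32 (70 mg/kg). Of 2122 genes so measured, the 5 with the closest pair of differences were Ctxn1, Mip, St8sia3, Sdc3 and Csnk1d, at Euclidean distances of 0.11 to 0.17 on the log2 scale. The likeness is to this pair of medians and over 3 arrays only. Hadh was at -1.80 and -2.25, Hadha at -0.15 and -2.32 and Eci1 at -2.42 and -3.39. Of these members only Hadh lay near the pair.

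The lower values also went with brightness on the control array, a split made after the values were seen. Among probe sets measured in the control and at 70 mg/kg, those in the brightest quartile of the control array (1173 to 24109, 766 probe sets) had a median difference of -1.16, and 55.9% were at least 2-fold lower. In the dimmest quartile the median was 0.92 and 0% were at least 2-fold lower, which the floor itself does not allow to be otherwise. The member probe sets of Cpt1b and Eci1 and the pair from the Hadha sequence D16478 lay in the brightest quartile, with differences of -2.32 to -4.24. Hadh and the Hadha probe set X98225_s_at lay in the next quartile, where 31.9% were lower, and Cpt2 in the one below, where 10.8% were. With quartiles by the geometric mean of both arrays, the trend was weaker: from the dimmest to the brightest, 14.9%, 25.8%, 24.97% and 33.0% were lower, and the medians were -0.05, 0.21, 0.22 and -0.41. By that split only the Hadha probe sets lay in the brightest quartile, Cpt1b and Eci1 in the next, Hadh below that and Cpt2 in the dimmest. The control-based split uses the control value on both axes. The part of this trend in the members' values was not tested.

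**Figure D3:**
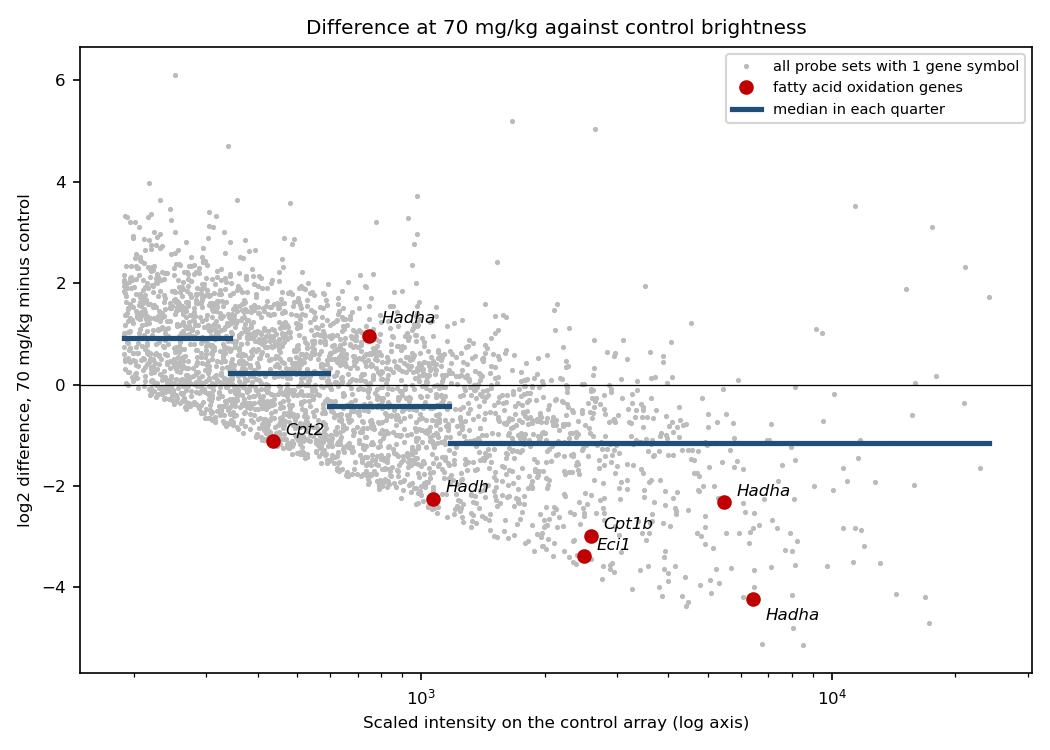
Log2 difference at 70 mg/kg minus control (vertical axis) against rescaled intensity on the control array (horizontal log axis) for all probe sets with 1 gene symbol above the floor on both arrays (grey) and those of the fatty acid oxidation genes (red); blue bars are medians in quartiles of the control value. The medians run from 0.92 to -1.16, the slanted lower edge is set by the floor, and Hadh, Eci1 and Cpt2 lie near that edge.

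The other mitochondrial enzymes of the pathway, a list without the members, were partly lower too. At 70 mg/kg 6 of the 11 genes on the array were measured, 4 at least 2-fold lower and 0 higher, with a median of -1.37. Over all genes measured, 23.2% were lower and 19.7% higher. The list was chosen with earlier results of these data known, so nothing is read from the difference between these shares. Among the list's genes not measured on both arrays, named after their values were seen, Decr1 (dienoyl-CoA reductase, D00569_g_at) read 125, 186 and 774. At the high dose this is at least 4.11-fold above the control. Etfa, a subunit of the electron transfer flavoprotein, read 109, 389 and 523 on rc_AA894174_g_at, at least 2.78-fold higher. The other probe set of each lay below the floor on all 3 arrays. The dienoyl-CoA isomerase Ech1 read 892 in the control, 77.1 at 35 mg/kg and 190 at 70 mg/kg, a difference of -2.23 at the high dose. The carnitine-acylcarnitine carrier Slc25a20 read 799, 819 and 210 (-1.93), high in the control and at 35 mg/kg alike. The short-chain hydratase Echs1 read 770, 1304 and 235 (-1.71) and was highest at 35 mg/kg. The short-chain dehydrogenase Acads read 500, 202 and 244 (-1.03). By control brightness, Ech1, Slc25a20 and Echs1 lay in the quartile where 31.9% of the probe sets measured were lower, and Acads where 10.8% were. At 35 mg/kg 4 genes of this list were measured, 1 lower and 0 higher (all genes 16.3% and 16.8%), with a median of 0.40. The median at 70 mg/kg was -0.43 with a floor at the 5th percentile (10 genes) and 0.50 with one at the 55th (2 genes).

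Neighbouring routes of fatty acid metabolism had medians within 2-fold of control at 70 mg/kg. For peroxisomal oxidation, 4 of 9 genes were measured at 70 mg/kg, 1 higher and 0 lower, and their median was 0.17, or -0.17 with the values as deposited. The racemase Amacr was at 1.45, the peroxisomal membrane transporter Abcd3 at 0.66, the carnitine octanoyltransferase Crot at -0.63 and the thiolase Acaa1b at -0.32. Of the ketone body enzymes, the hydroxybutyrate dehydrogenase Bdh1 was at 1.05 and the acetoacetyl-CoA thiolase Acat1 at -0.15 on D00512_g_at. Another Acat1 probe set of the same sequence, D00512_at, was below the floor in the control and read 828 at 70 mg/kg, at least 4.40-fold higher. Fatty acid uptake, binding and activation had a median of 0.13 over 8 measured of 14 genes, 2 lower and 0 higher, and of -0.83 without the less specific probe sets. The lower ones were the hormone-sensitive lipase Lipe (-1.31) and the acyl-CoA synthetase Acsl5 (-1.07), while lipoprotein lipase Lpl was at 0.93 and Acsl1 at 0.92 on probe sets that disagreed (-0.83 and 2.68). The heart-type fatty acid binding protein Fabp3, singled out after its values were seen, read 906, 1228 and 135, so that at 70 mg/kg it lay below the floor, at least 4.81-fold under the control. Of the enzymes that make malonyl-CoA or sense AMP, which restrain or release CPT1, only the AMP kinase subunit Prkag1 was measured at 70 mg/kg (0.43).

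**Figure D4:**
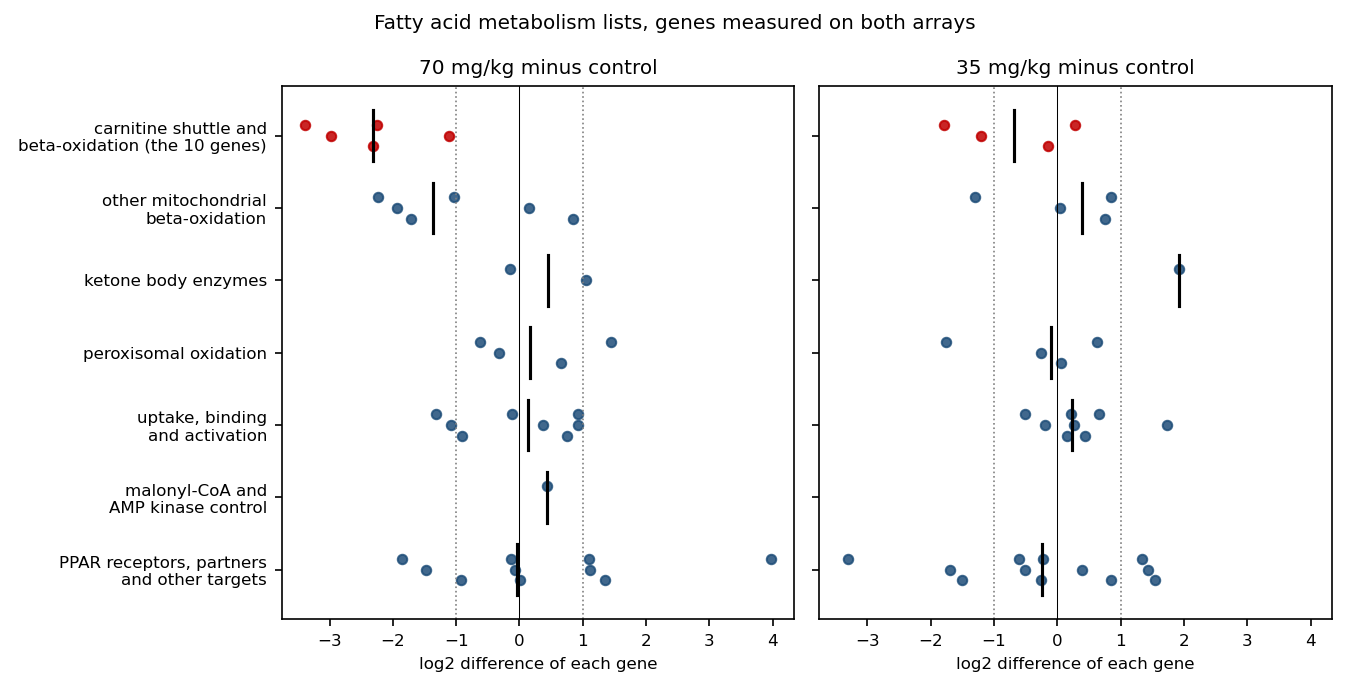
Log2 differences (horizontal axis) of each measured gene in the lists of fatty acid metabolism at 70 mg/kg and 35 mg/kg minus control; red points are the 10-gene set, blue points the other lists, black bars medians and dotted lines 2-fold. At 70 mg/kg the medians of the 10-gene set and of the other mitochondrial enzymes are -2.32 and -1.37, and those of the remaining lists lie from -0.03 to 0.45.

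The nuclear receptors that act on these genes gave mixed values. Ppara read 665 in the control, 204 at 35 mg/kg and 667 at 70 mg/kg, low at the lower dose only, with differences of -1.70 and 0.00. Ppard was at -1.86 at 70 mg/kg, with its 3 probe sets from -2.48 to -0.94. Pparg lay below the floor in the control and read 349 and 343 at the doses. The partner Rxra was at -0.92, while the partners Rxrb and Rxrg, named after their values were seen, were at 1.12 and 1.09. No probe set carried Ppargc1a alone (0 probe sets). Of other targets of these receptors, the fatty acid hydroxylases Cyp4a3 (3.97) and Cyp4a1 (1.36) were higher and Cyp4a8 (-1.48) lower. The Cyp4a1 probe sets ran from 0.17 to 3.33. The whole list of receptors, partners and targets had 4 higher and 2 lower of 10 measured genes, with a median of -0.03 that was 0.12 with the values as deposited. Over all genes measured, 23.2% were lower and 19.7% higher. Some listed genes fell outside the count because 1 array was below the floor, and they are named after their values were seen. Ncoa1 read 6439, 650 and 135, at least 34.2-fold lower at 70 mg/kg. The Pdk2 probe sets were at least 4.05-fold and 2.15-fold lower there, while Pparg was at least 1.82-fold higher.

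The binding site of PPAR-RXR dimers is a direct repeat of the hexamer AGGTCA spaced by 1 base. Promoter windows were at hand for 7 of the 10 members (not for Cpt1b, Acadl and Acaa2), and the exact repeat AGGTCANAGGTCA, on either strand, was in 0 of 7 and in 0.0538% of all 33469 windows of this length. The single hexamer was in 2 of 7, Acadvl and Eci1, and in 16.2% of all windows. The Eci1 window is shown because it is the one member both measured at 70 mg/kg and holding the hexamer. It lies at chr10:13961000-13961299 on the plus strand of GRCr8 (RefSeq), and capitals mark the hexamer, which is on the opposite strand and is printed as its reverse complement.
Eci1: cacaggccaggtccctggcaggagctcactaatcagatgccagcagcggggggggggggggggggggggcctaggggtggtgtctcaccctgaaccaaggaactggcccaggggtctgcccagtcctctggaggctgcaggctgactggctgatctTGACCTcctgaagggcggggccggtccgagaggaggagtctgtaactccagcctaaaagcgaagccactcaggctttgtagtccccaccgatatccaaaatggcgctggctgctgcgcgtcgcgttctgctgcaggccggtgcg
A match describes these letters only, and a window without one does not speak of sites elsewhere.

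Markers of other cells that use the pathway also varied. In bulk tissue, fewer cells of a type and less RNA per cell cannot be told apart. Of 11 skeletal muscle markers, 8, 6 and 8 passed the floor from control to high dose, with 2 higher and 2 lower of 6 measured at 70 mg/kg and a median of 0.00. Their summed intensity was 9892, 5571 and 5279. That order rests on Casq1, without which the sums were 3586, 4063 and 4437. Their largest differences at 70 mg/kg were those of the calcium-binding Casq1 (-2.90), the actin Acta1 (-1.96) and the myosin Myh1 (1.51). Cardiomyocyte markers passed for 8 of 10, 7 and 8 genes, with 2 higher and 1 lower of 7 measured at 70 mg/kg and sums of 10040, 19093 and 15051. Without 1 Nppa probe set the sums were 9063, 10221 and 7422, lowest at 70 mg/kg. Leaving out 1 Myl2 probe set as well gave 6170, 7475 and 6425, lowest in the control. Nppa was at 2.97, Nppb at 1.52 and Myl2 at -1.54. Markers of fat cells in general passed for 3, 5 and 6 of 7 genes, and their sum was 17484, 15734 and 6013. Without 1 probe set of Lep the sums were 8970, 11468 and 5770, still lowest at 70 mg/kg. Leaving out 1 probe set of Lipe as well gave 3562, 6653 and 3883, with no lower value at 70 mg/kg than in the control. Of the 3 fat cell genes measured at 70 mg/kg, 0 were higher and 1 was lower. Lipe was as above, Lep at -0.21 on probe sets from -5.13 to 0.36 and Cebpa at 0.27. Fabp4, Plin1 and Pparg, named after their values were seen, were below the floor in the control and above it at 70 mg/kg. From control to high dose Fabp4 read 85.4, 62.6 and 472, Plin1 132, 703 and 463, and Pparg 134, 349 and 343. The Cebpa probe set X12752_at went the other way, at 456, 326 and 148. Brown fat markers passed for 4, 3 and 3 of 4 genes, with sums of 3562, 5820 and 4354, or 2129, 1757 and 1886 without Adrb3. Without Adrb3 and Cidea the sums were 779, 897 and 1863, highest at 70 mg/kg. Of the brown fat markers, Ucp1 was at 2.10, Dio2 at 1.04 and Adrb3 at 0.78. Cidea, named after its values were seen, read 1351, 860 and 22.8.

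The smooth muscle list had 3 higher and 1 lower of 7 measured genes, with Cnn1 at 2.86, Pln at 2.36 and Kcnmb1 at -1.66. Its sums were 7605, 5555 and 9912, or 5992, 4230 and 7309 without 1 probe set of Acta2. Leaving out that of Cnn1 as well gave 5774, 3597 and 5730. Endothelial markers had 1 higher and 1 lower of 5, with sums of 4429, 6891 and 7145 (Nos3 1.52, Flt1 -1.20, Edn1 -0.56). Macrophage markers had 0 higher and 1 lower of 2 (Lyz2 -1.91, Cd14 0.93). Their sums were 2857, 1961 and 3097, or 1182, 371 and 1558 without 1 probe set of Cd14. Without 2 probe sets of Cd14 the sums were 867, 148 and 318. Blood cell markers had 1 higher and 1 lower of 4 (Alas2 2.04, Slc4a1 -1.17, Ptprc 0.81), with sums of 5431, 5656 and 6977. No probe set for a rat gene read 0 on any array (0 of 8740). The part of these cell types in the values of the fatty acid oxidation genes was not tested.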

How the data were processed

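The authors deposited linear intensities, 1 for each probe set on each array. Their software and scaling were not given in the sources used here. Trimming 2% of probe sets at each end left means of 500.4, 500.4 and 500.2 (control, 35 and 70 mg/kg), so the deposited intensities had been scaled to a common mean. Of 8799 probe sets, 59 controls were left out. The platform annotation gave 1 symbol to 7006 of the other 8740, several to 308 and none to 1426, and all 10 members kept their symbol in the GRCr8 RefSeq table.

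Arrays were scaled to a common median (log2 shifts of 0.06, 0.04 and -0.09). Values at or below the floor were not measured. For a probe set above it on 1 array only, a bound was taken against the floor. Members and lists were chosen with earlier results of these data known. Named genes were all members, up to 4 per pathway list and up to 3 per marker list with the largest difference at 70 mg/kg, 5 regulators, and the 5 nearest patterns; others are marked. The code was tested on simulated data. Scaling, floor and choice of probe sets were varied in 11 alternatives, 1 of them added after the data were seen. Marker sums were also taken without the 1 and the 2 probe sets of highest intensity, likewise added after the data were seen. Python 3.11.15, numpy 2.4.6 and pandas 2.3.3 were used.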

Additional observations from a re-analysis of the deposited data

Results flagged for a closer look

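The spike-in control probe sets lie outside the comparisons of aortic genes. Their 9 probe sets were a median of 28.8 times as bright on the 70 mg/kg array and 3.81 times as bright on the 35 mg/kg array as on the control array, above the level on the control array. The part of this in the values of the fatty acid oxidation genes was not tested.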

How the results depend on the processing

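The median of the 10-gene set at 70 mg/kg was below 0 under all 11 alternatives, from -2.98 without less specific probe sets to -1.10 when the floor was the 5th percentile (9 genes measured). The members were picked as lower on these same arrays, so a median below 0 carries no support. Under the alternatives, 20.5% (55th percentile floor) to 26.2% (5th percentile floor) of all genes or probe sets measured were at least 2-fold lower. The count at least 2-fold lower at 70 mg/kg, 5, was 2 when the floor was the 55th percentile (2 genes measured), and 3 with probe sets above the floor on all 3 arrays, an alternative chosen after seeing the data that measured 3. It was 4 with the values as deposited or scaled to a trimmed mean, where Cpt2 fell short of 2-fold, and 4 with probe sets above the floor on at least 1 array. With the 5th or 25th percentile floor the count was unchanged, but more genes were measured and not all were lower. There Eci1 (-0.87) fell short of 2-fold and Acaa2 (-1.10) was counted. At 35 mg/kg the count of 2 was 4 with the 5th and 1 with the 55th percentile floor. Of all genes measured, 22.2% and 15.2% were lower with these floors, against 16.3% with the floor of 188. The median of -0.68 at 35 mg/kg was -1.80 with probe sets above the floor on all 3 arrays. Between the doses the count lower, 1, was 2 when the floor was the 5th or 25th percentile, with probe sets above the floor on at least 1 array and with each probe set by itself. Of all genes or probe sets, 22.8%, 23.7%, 20.8% and 22.4% were lower in these settings, against 20.9% with the floor of 188. The count higher between the doses, 0, was 1 with the 5th percentile floor, where 22.6% of all genes were higher, against 14.4%. Of the list medians past 2-fold, those that changed sign were of the other mitochondrial enzymes at 70 mg/kg (0.50, 55th percentile floor), of brown fat markers at 35 mg/kg (-0.0155, 5th percentile floor) and of macrophage markers between the doses (-0.047 with the 55th percentile floor and with the brightest probe set per gene). Smaller list medians also changed sign: at 70 mg/kg those of the peroxisomal (-0.17 with the values as deposited), PPAR (0.12 likewise), uptake, ketone body, fat cell, smooth muscle, endothelial and macrophage lists did so under at least 1 alternative. The floor and probe set settings measured other probe sets; beyond that the cause was not tested. Scaling did not end the direction of a member at 70 mg/kg, but Eci1 was at -1.74 with the values as deposited, because a second probe set then passed the floor. No paired analysis was possible because each group had 1 array.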

Other observations

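The fatty acid transporter Cd36, picked after its values were seen, was above the floor on the dosed arrays and not in the control. It read 23.2 in the control, 498 at 35 mg/kg and 597 at 70 mg/kg on the probe set AB005743_at, at least 2.65-fold and 3.17-fold higher, and its other probe set with 1 symbol was below the floor on all 3 arrays.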
